A study of Mus musculus with 18 samples.

Results

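The genes described here are 10 mouse genes of primordial germ cell specification and early germline identity, namely Prdm1, Prdm14, Tfap2c, Dppa3, Nanos3, Dnd1, Kit, Dazl, Ddx4 and Rhox9. They were chosen by name and looked up by gene identifier in the tables of RNA counts of embryonic stem cells (ESCs) and epiblast-like cells (EpiLCs). All 10 are among the 13104 genes listed for ESCs. In EpiLCs, 9 of them are among the 13717 genes listed, and Nanos3 is not. The tables list 14411 genes between them.

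The study examined how Δ9-tetrahydrocannabinol (Δ9-THC), the main psychoactive compound of cannabis, affects pluripotent cells and the germ cells made from them in culture. The data used here are 12 RNA sequencing libraries, 3 biological replicates in each of 4 groups, while 6 further libraries of primordial germ cell-like cells in the series were not used. All groups descend from BVSC cells, mouse ESCs that carry the fluorescent reporters Blimp1::mVenus, driven by Prdm1 regulatory sequence, and Stella::ECFP, driven by that of Dppa3. Vehicle ESCs were kept in 2i+LIF medium, which holds inhibitors of MEK and GSK3 with leukemia inhibitory factor, and received ethanol. Exposed ESCs received Δ9-THC at 100 nM for 48 h in the same medium. EpiLCs were induced from each of these cultures with activin A and basic fibroblast growth factor, vehicle EpiLCs with ethanol and exposed EpiLCs with 100 nM Δ9-THC for another 48 h. The study used a female and a male clone of BVSC cells and gives female ESCs as the source of its main proliferation data. It does not name the clone for the RNA libraries. Whether reporter transcripts add to the counts of Prdm1 or Dppa3 was not tested.

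The deposited counts had been adjusted for batch effects by the authors, separately for each cell type, and totalled between 23427551 and 32096698 per library. Levels are given as CPM (counts per 1000000 counts of the library), scaled between libraries by the TMM method, with the SD over 3 libraries. Levels of different genes are compared as FPKM, which divides the CPM by the exonic length in kilobases. The marker lists are an exception, where the gene with the highest CPM is named without regard to its length. The CPM of ESCs and EpiLCs are set side by side with no test, since the tables were adjusted apart. Exposure was tested within each cell type with edgeR over all genes listed, and a gene is called at an adjusted p of at most 0.05. In the adjusted counts, libraries of the same replicate number lie on opposite sides of their group means within each table. The 6 libraries of a table are therefore not independent, and a test that takes them as independent understates the error of the difference between the groups.

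Primordial germ cells, the founders of sperm and eggs, arise from the epiblast when BMP and WNT signals switch on PRDM1, PRDM14 and TFAP2C, transcription factors that silence somatic genes and restore features of pluripotency. ESCs in 2i+LIF resemble the naive epiblast before implantation, and EpiLCs resemble the formative epiblast that responds to these signals. Germ cells then use RNA-binding proteins such as NANOS3, DND1, DAZL and DDX4, whose genes are in part silenced by promoter methylation in somatic cells.

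The labels of the cell types were checked against marker genes. The summed level of 8 naive markers was 3584 ± 91.2 CPM (SD, n = 3) in vehicle ESCs and 145 ± 9.55 CPM in vehicle EpiLCs. Prdm14 is itself among those 8, and the highest in CPM was Tfcp2l1 in ESCs at 1279 CPM. The summed level of 7 formative and primed markers was 169 ± 7.23 CPM in vehicle ESCs and 1950 ± 174 CPM in vehicle EpiLCs. Dnmt3b had the highest CPM of this list in both, and Fgf5 was not listed in ESCs. In exposed libraries the naive markers summed to 3559 CPM in ESCs and 159 ± 10.1 CPM in EpiLCs, where vehicle and exposed libraries overlapped, and the formative and primed markers to 1958 CPM in EpiLCs. Whether the naive sum bears on the levels of Prdm14 and Kit in exposed EpiLCs was not tested. The markers thus separated the cell types in the direction of their labels.

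Markers of other lineages were listed in part, and their sums cover the genes listed in a cell type, which can differ between the types. Of 8 endoderm markers, Gata6, Sox17, Sox7, Pdgfra, Foxa2 and Afp were listed in neither cell type, while Gata4 had 2.94 CPM in vehicle ESCs and 0.972 CPM in vehicle EpiLCs, and Dab2, listed in EpiLCs only, 6.83 CPM. The sum of primitive streak and mesoderm markers was 17.2 CPM in vehicle ESCs and 7.02 CPM in vehicle EpiLCs, with Eomes the highest in CPM in both. Of 9 trophoblast markers 5 were listed, Cdx2, Elf5, Hand1 and Plac1 were not, and keratins brought the sum to 105 ± 17.7 CPM in vehicle EpiLCs, with Krt18 at 65.5 CPM. Neural markers summed to 98.5 CPM in vehicle ESCs, with Tubb3 the highest in CPM, and 135 CPM in vehicle EpiLCs, with Nes the highest. Of these 6 markers 3 were listed in ESCs and 4 in EpiLCs, where Sox1 had 12.6 CPM and Pax6 3.23 CPM with the vehicle, and Neurog2 was not listed. Markers of 2-cell-like cells summed to 2.32 CPM in vehicle ESCs and 7.65 CPM in vehicle EpiLCs, and markers of fibroblast feeders, with 2 of 6 listed in ESCs and 4 in EpiLCs, to 6.22 and 17.0 CPM. With Δ9-THC the neural sum in ESCs was 86.6 CPM and the endoderm sum in EpiLCs 9.43 CPM against 7.81 CPM with the vehicle, both with no overlap between exposures, and the sum of 2-cell-like markers in ESCs was 3.19 CPM. Whether these sums bear on the levels of the germ cell genes was not tested. The general pluripotency markers summed to 902 CPM in vehicle and 852 CPM in exposed ESCs, with no overlap, and to 1281 CPM in vehicle and 1200 CPM in exposed EpiLCs. The RNA came from whole cultures, so fewer cells that express a gene and less RNA per cell cannot be told apart.

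Without exposure, most of the germ cell genes stood lower in EpiLCs than in ESCs. In vehicle libraries 8 of the 9 genes listed in both tables had no overlap between the cell types, where 75.5% of the 12410 shared genes had none, so the share among the germ cell genes is near that of all genes. Of those 8 genes, 6 were lower in EpiLCs, namely Prdm14, Kit, Tfap2c, Dazl, Dppa3 and Rhox9, as were 38.4% of all shared genes. The other 2, Dnd1 and Ddx4, were higher in EpiLCs, as were 37.1%, and the libraries of Prdm1 overlapped. With Δ9-THC the same 8 genes had no overlap between the cell types, in the same directions, against 74.4% of all shared genes (38.7% lower and 35.7% higher in EpiLCs).

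The exposure comparison called none of the germ cell genes in either cell type. In ESCs edgeR called 0 of 10, where 6.91% of 13104 genes were called. That share was at most 0.00763% when any library was left out, and 0.0534% with offsets for GC content and gene length. With all 6 libraries and no offsets, edgeR counted 1 of the 10, Dazl, at an unadjusted p under 0.05, against 28.7% of all genes. DESeq2 called 1 of the 10 in ESCs, again Dazl, and 5.75% of all genes, and it gave no adjusted p for Nanos3 and Dnd1. In EpiLCs edgeR called 0 of 9, and the share called among 13717 genes was 0%. At an unadjusted p under 0.05 it counted 4 of the 9, Prdm14, Dppa3, Kit and Ddx4, against 15.1% of all genes, and DESeq2 called 0 of the 9 and 0.518% of all genes.

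In ESCs 6 of the germ cell genes had a log2(fold-change) above 0, as had 51.1% of all genes, and 4 below, with a median of 0.037 where the median of all genes was 0.0041. The median size of the difference was 0.064 among them and 0.10 among all genes. In EpiLCs 6 lay above 0, as did 50.7% of all genes, and 3 below, with a median of 0.11 where the median of all genes was 0.0030, and median sizes of 0.13 and 0.12. With offsets for GC content and gene length, Prdm14, Tfap2c, Dppa3, Dnd1 and Ddx4 changed sign in ESCs. Their values with the offsets ran from -0.091 for Dppa3 to 0.037 for Dnd1, and none was called.

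**Figure D1:**
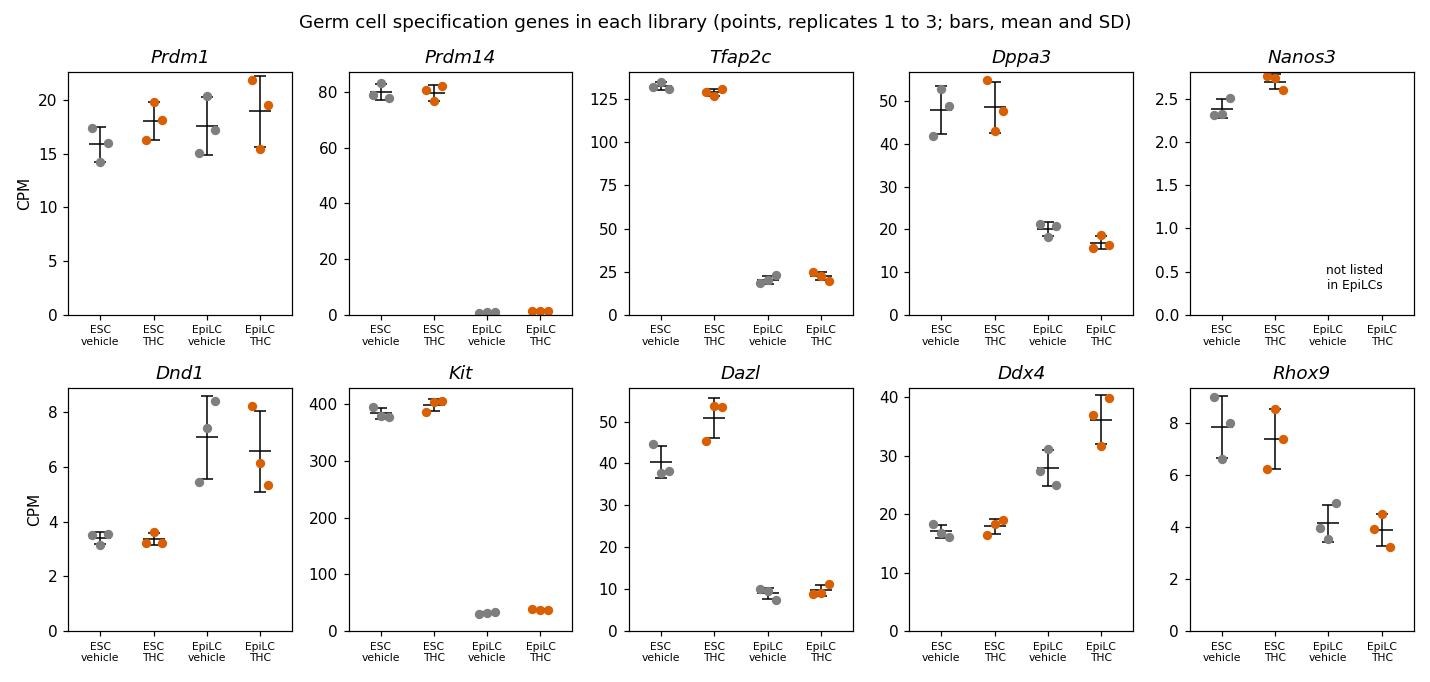
Level of each gene in CPM (linear axes from 0) in the 12 libraries, grouped by cell type and exposure. Points are libraries in the order of their replicate numbers, and bars show the mean and SD of 3. Kit, Prdm14 and Tfap2c stand far lower in EpiLCs than in ESCs, Ddx4 and Dnd1 stand higher, and exposed EpiLCs lie above vehicle EpiLCs for Ddx4.

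Among the transcription factors, Prdm1 encodes BLIMP1, a zinc finger repressor that shuts off the somatic program in the first germ cells. The gene is ENSMUSG00000038151 at chr10:44437177-44528501 on the minus strand of GRCm38. In vehicle ESCs its level was 17.4, 14.2 and 16.0 CPM in replicates 1, 2 and 3, and in exposed ESCs 16.3, 19.8 and 18.1 CPM. The groups overlapped, since replicate 1 of the vehicle lay above the lowest exposed library. Exposed over vehicle, the log2(fold-change) was 0.19 ± 0.098 (SE), with an adjusted p of 0.260. In vehicle EpiLCs its level was 15.1, 20.4 and 17.2 CPM, and in exposed EpiLCs 21.9, 15.4 and 19.5 CPM. The ranges of the EpiLC groups were almost the same, with a log2(fold-change) of 0.11 ± 0.16 and an adjusted p of 0.792. Prdm1 was thus the only one of the 9 genes whose vehicle libraries overlapped between the cell types, with means of 15.9 CPM in ESCs and 17.6 CPM in EpiLCs.

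Prdm14 encodes a PR domain zinc finger protein that works in both naive pluripotency and germ cell specification. It lies at chr1:13113457-13127163 on the minus strand (ENSMUSG00000042414). Vehicle ESCs had 78.8, 83.1 and 78.0 CPM and exposed ESCs 80.6, 76.6 and 82.1 CPM, so these groups lay within the same narrow band. Their log2(fold-change) was -0.0036 ± 0.040, with an adjusted p of 0.967. In EpiLCs the gene stood close to the lower end of the table, at 0.790, 0.880 and 1.11 CPM with the vehicle and 1.52, 1.46 and 1.21 CPM with Δ9-THC. The counts behind these values were 23, 28 and 25 in vehicle EpiLCs and 39, 37 and 36 in exposed EpiLCs. All 3 exposed EpiLC libraries lay above all 3 vehicle libraries, by a narrow gap between the highest vehicle and the lowest exposed library. The log2(fold-change) was 0.60 ± 0.17 (SE of 0.34 from DESeq2), with an unadjusted p of 0.0117 and an adjusted p of 0.216, so the difference did not pass the test over all genes. Between cell types the vehicle means differed 86.4-fold, from 80.0 CPM in ESCs to 0.925 CPM in EpiLCs. With Δ9-THC the means were 79.8 and 1.40 CPM, a 57.1-fold difference. The gap between the cell types was the widest among the 9 genes at either exposure.

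Tfap2c encodes AP-2γ, a transcription factor that acts in germ cells and in trophoblast and is also active in naive cells. It lies at chr2:172549593-172558622 on the plus strand (ENSMUSG00000028640). Vehicle ESCs had 132, 135 and 131 CPM and exposed ESCs 129, 127 and 131 CPM, an overlap at the edge of both groups. In ESCs the log2(fold-change) was -0.041 ± 0.028 (SE of 0.050 from DESeq2), with an adjusted p of 0.370. Vehicle EpiLCs had 18.3, 20.1 and 22.8 CPM and exposed EpiLCs 24.6, 22.7 and 19.8 CPM, again with overlap. There the log2(fold-change) was 0.13 ± 0.11, with an adjusted p of 0.627, and a range of 0.047 to 0.22 when a library was left out. The vehicle means were 133 CPM in ESCs and 20.4 CPM in EpiLCs, 6.50-fold lower in EpiLCs.

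Dppa3, also called Stella or PGC7, encodes a protein that protects the maternal genome from demethylation in the zygote and marks newly specified germ cells. It lies at chr6:122626410-122630272 on the plus strand (ENSMUSG00000046323). Vehicle ESCs had 41.9, 52.9 and 48.9 CPM and exposed ESCs 54.9, 43.1 and 47.6 CPM. The groups overlapped over most of their range, with a log2(fold-change) of 0.019 ± 0.11 and an adjusted p of 0.935. Vehicle EpiLCs had 21.2, 18.1 and 20.7 CPM and exposed EpiLCs 15.7, 18.6 and 16.4 CPM. Replicates 1 and 3 of the exposed EpiLCs lay below every vehicle library, while replicate 2 lay above replicate 2 of the vehicle, so the groups overlapped. The log2(fold-change) was -0.24 ± 0.098, with an unadjusted p of 0.0462 and an adjusted p of 0.323. Dppa3 was the only gene of the 4 with an unadjusted p under 0.05 in EpiLCs that was lower with Δ9-THC. Its vehicle means were 47.9 CPM in ESCs and 20.0 CPM in EpiLCs, 2.40-fold lower in EpiLCs.

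Among the RNA-binding proteins, NANOS3 represses translation with Pumilio partners and keeps migrating germ cells alive. Nanos3 lies at chr8:84173731-84185217 on the minus strand (ENSMUSG00000056155) and was listed in ESCs only. Vehicle ESCs had 2.31, 2.33 and 2.51 CPM, from 76, 64 and 71 counts, and exposed ESCs had 2.76, 2.74 and 2.60 CPM, from 66, 82 and 62 counts. All exposed libraries lay above all vehicle libraries, by a small margin. This gave a log2(fold-change) of 0.18, with an adjusted p of 0.383 and an SE of 0.083 that is small for so few counts, where DESeq2 gave an SE of 0.23. Its level in EpiLCs is unknown, as the authors removed genes with low counts and no value is listed there.

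DND1 binds the ends of messenger RNAs in germ cells and shields them from microRNAs, and loss of its gene causes testicular germ cell tumours in mice. Dnd1 lies at chr18:36763671-36766214 on the minus strand (ENSMUSG00000044595). Its exons share 5.8% of their bases with Wdr55 on the other strand, and the counting ignored strand, so reads over those bases are ambiguous between these genes. Vehicle ESCs had 3.50, 3.14 and 3.53 CPM and exposed ESCs 3.23, 3.61 and 3.23 CPM, with overlap. Their log2(fold-change) was -0.012 ± 0.091, with an adjusted p of 0.970, and the SE from DESeq2 was 0.20. Vehicle EpiLCs had 5.43, 7.42 and 8.41 CPM and exposed EpiLCs 8.22, 6.14 and 5.33 CPM, a wide spread in both groups. There the log2(fold-change) was -0.11 ± 0.22, with an adjusted p of 0.853. All 6 EpiLC libraries lay above all 6 ESC libraries, and the vehicle means of 3.39 and 7.08 CPM differed 2.09-fold.

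DAZL promotes translation in germ cells and is needed for their commitment to gamete formation. Dazl lies at chr17:50279395-50293636 on the minus strand (ENSMUSG00000010592). Vehicle ESCs had 44.7, 37.8 and 38.3 CPM and exposed ESCs 45.3, 53.7 and 53.4 CPM. Every exposed ESC library was above every vehicle library, though replicate 1 of the exposed group was above replicate 1 of the vehicle by little. In ESCs 2 of the 10 genes, Dazl and Nanos3, had exposed libraries all above the vehicle libraries, where 16.7% of all genes had. The log2(fold-change) of Dazl in ESCs was 0.33 ± 0.091, a ratio of 1.26, with an unadjusted p of 0.00886 and an adjusted p of 0.0720.

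The difference of Dazl in ESCs lay near the threshold and depended on the method. DESeq2 called it with an adjusted p of 0.0120, and over all alternatives tried the adjusted p ran from 0.0120 to 0.896. With offsets that take out each library's dependence on GC content and on gene length, its log2(fold-change) was 0.13 ± 0.066, with an adjusted p of 0.334. The longest transcript of Dazl has a GC content of 37.0%, the lowest of the 10 genes. In EpiLCs Dazl was low, at 9.93, 9.65 and 7.44 CPM with the vehicle and 8.77, 9.13 and 11.3 CPM with Δ9-THC. These groups overlapped, with a log2(fold-change) of 0.11 ± 0.15 and an adjusted p of 0.771. The vehicle means were 40.3 CPM in ESCs and 9.00 CPM in EpiLCs, 4.47-fold lower in EpiLCs.

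Ddx4 encodes the germ cell RNA helicase VASA, which acts in germ granules and in the piRNA pathway. It lies at chr13:112598333-112652475 on the minus strand (ENSMUSG00000021758). Vehicle ESCs had 18.3, 16.7 and 16.1 CPM and exposed ESCs 16.5, 18.3 and 19.0 CPM. The ESC groups overlapped, with a log2(fold-change) of 0.073 ± 0.074 and an adjusted p of 0.555. Vehicle EpiLCs had 27.3, 31.1 and 25.0 CPM and exposed EpiLCs 36.9, 31.7 and 39.9 CPM. Every exposed EpiLC library was above every vehicle library, with replicate 2 of both groups close together. The log2(fold-change) was 0.38 ± 0.12, a ratio of 1.30, with an unadjusted p of 0.0150 and an adjusted p of 0.227.

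Ddx4 and Dazl, both late germline genes, thus differed between the cell types in opposite directions. Ddx4 was 1.63-fold higher in vehicle EpiLCs than in vehicle ESCs, with means of 27.8 and 17.0 CPM. With Δ9-THC it was 2.01-fold higher, with means of 36.2 and 17.9 CPM. Dazl with Δ9-THC was 5.21-fold lower in EpiLCs, with means of 50.8 CPM in ESCs and 9.74 CPM in EpiLCs.

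Kit encodes the receptor tyrosine kinase that carries survival and migration signals of KIT ligand in germ cells. It lies at chr5:75574916-75656722 on the plus strand (ENSMUSG00000005672). Vehicle ESCs had 394, 379 and 377 CPM and exposed ESCs 386, 403 and 406 CPM. These overlapped, with a log2(fold-change) of 0.055 ± 0.032 and an adjusted p of 0.305. Vehicle EpiLCs had 30.9, 32.3 and 33.3 CPM and exposed EpiLCs 38.9, 37.7 and 36.4 CPM. The EpiLC groups did not overlap, and each was tight. The log2(fold-change) was 0.23 ± 0.061 (SE of 0.097 from DESeq2), a ratio of 1.17, with an unadjusted p of 0.00830 and an adjusted p of 0.204, the lowest of the 9 genes in EpiLCs.

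The Kit difference in EpiLCs was called in 1 alternative, the edgeR model of all 12 libraries, with an adjusted p of 0.0447. There 3.31% of all genes were called in EpiLCs. That model takes a single spread between replicates for each gene from both cell types, though replicates differed more in EpiLCs. The adjusted p ran up to 1.00 over the alternatives tried. Removing the GC and length trend gave a log2(fold-change) of 0.15 ± 0.067 and an adjusted p of 0.411. In EpiLCs 3 of the 9 genes, Prdm14, Kit and Ddx4, had exposed libraries all above the vehicle libraries, where 11.2% of all genes had. Between cell types the vehicle means of Kit were 383 CPM in ESCs and 32.2 CPM in EpiLCs, 11.9-fold lower in EpiLCs, and with Δ9-THC the ratio was 10.6.

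Rhox9 encodes a homeobox protein of the reproductive homeobox cluster on the X chromosome and is active in germ cells of the fetal gonad. It lies at chrX:37899097-37901770 on the minus strand (ENSMUSG00000068048). Of the 100-base windows along its exons, 2.7% also occur in Rhox6. Whether reads there were lost, as only reads with a single position were retained, was not tested. Vehicle ESCs had 8.98, 6.60 and 7.98 CPM and exposed ESCs 6.24, 8.53 and 7.38 CPM, with overlap. Its log2(fold-change) in ESCs was -0.087 ± 0.15, with an adjusted p of 0.745. Vehicle EpiLCs had 3.98, 3.52 and 4.91 CPM and exposed EpiLCs 3.94, 4.49 and 3.24 CPM, also with overlap. Here the log2(fold-change) was -0.085 ± 0.18, with an adjusted p of 0.858. The vehicle means were 7.86 CPM in ESCs and 4.14 CPM in EpiLCs, 1.90-fold lower in EpiLCs.

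**Figure D2:**
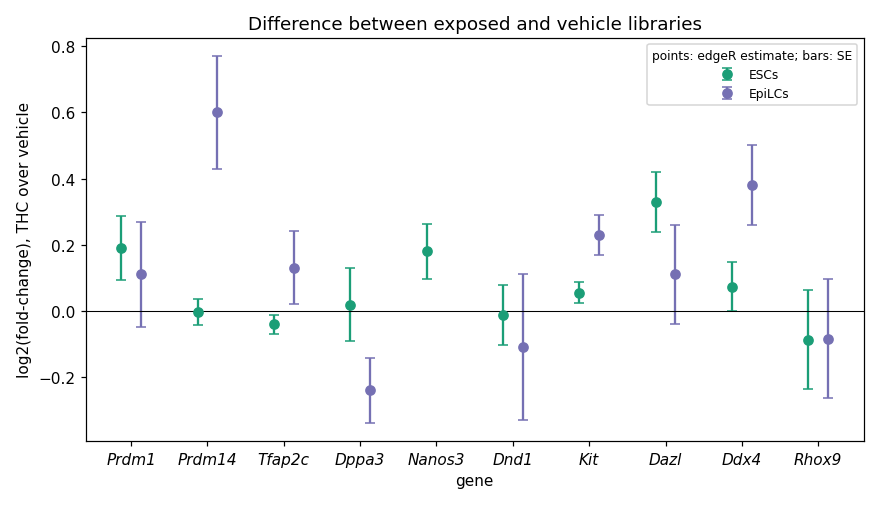
Log2(fold-change) of exposed over vehicle libraries for each gene, with points for the edgeR estimate and bars for the SE, in ESCs and in EpiLCs (Nanos3 in ESCs only). Dazl at 0.33 in ESCs and Prdm14 at 0.60, Ddx4 at 0.38 and Kit at 0.23 in EpiLCs lie farthest above 0 relative to their SE, and none of the values was called by edgeR.

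On the FPKM scale, the order of the genes in vehicle ESCs began with Dppa3 at 53.7 ± 6.21 FPKM, Kit at 43.0 ± 1.03, Tfap2c at 36.1 ± 0.578 and Prdm14 at 31.2 ± 1.06. These 4 lay above 87.5% or more of the genes in the table. Dazl at 10.5 ± 1.01 FPKM and Ddx4 at 5.66 ± 0.382 followed, and the libraries of each of these 6 did not overlap those of the next. Rhox9 at 3.16 ± 0.480, Prdm1 at 2.84 ± 0.286 and Nanos3 at 2.58 ± 0.115 FPKM overlapped their neighbours, so their order is not settled. Dnd1 was lowest at 1.41 ± 0.0911 FPKM, above 22.4% of the genes listed. The specification factors other than Prdm1 were therefore among the more abundant transcripts per length of ESCs.

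In exposed ESCs the order per length was the same for the first 6 genes, from Dppa3 at 54.4 ± 6.69 FPKM to Ddx4 at 5.95 ± 0.432. Prdm1 at 3.24 ± 0.315 FPKM stood before Rhox9 at 2.97 ± 0.460 and Nanos3 at 2.93 ± 0.0973, all with overlap. With the length of the longest transcript in place of the exonic length, Kit was first and Dppa3 the next in both ESC groups.

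In vehicle EpiLCs Dppa3 was again first, at 22.4 ± 1.86 FPKM, and Ddx4 came next at 9.22 ± 1.03. Tfap2c followed at 5.55 ± 0.624 FPKM. Kit at 3.61 ± 0.138, Prdm1 at 3.15 ± 0.480, Dnd1 at 2.94 ± 0.630, Dazl at 2.36 ± 0.357 and Rhox9 at 1.66 ± 0.285 FPKM each overlapped the next in this run. Prdm14 was last at 0.361 ± 0.0636 FPKM, above 6.80% of the genes listed. In exposed EpiLCs the order was the same, with Ddx4 between 10.5 and 13.2 FPKM, Kit at 4.22 ± 0.142 and Prdm14 at 0.545 ± 0.0628. Ddx4 and Dppa3 were thus the most abundant of the germ cell genes per length in EpiLCs.

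An interaction contrast over the 12410 genes in both tables asked whether the response to Δ9-THC differed from ESCs to EpiLCs. The model takes a single spread between replicates for each gene, shared by both cell types. Between replicates of a group, the chi-square per degree of freedom of the counts was 4.6 to 7.49 in ESCs and 38.5 to 92.1 in EpiLCs. The SEs below can thus understate the noise of EpiLCs. None of the 9 germ cell genes was called by edgeR or by DESeq2, where edgeR called 0.0322% and DESeq2 1.07% of all genes. At an unadjusted p under 0.05 it counted 3 of the 9, Prdm14, Kit and Ddx4, against 13.7% of all genes. For Prdm14 the difference in log2(fold-change), EpiLCs minus ESCs, was 0.62 ± 0.16, with an adjusted p of 0.141. For Ddx4 it was 0.32 ± 0.15, with an adjusted p of 0.358, and for Kit 0.19 ± 0.073, with an adjusted p of 0.285. The difference was above 0 for 5 of the 9 genes and for 52.9% of all genes, and its median was 0.020 over the 9 genes and 0.014 over all genes. A difference between the cell types in the response of these genes was therefore not shown.

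For each gene listed in both tables, the genes with the most similar profile of log2 CPM over the 12 libraries, up to 3 of which are named, were found by Euclidean distance after centring each gene. The profile is set mainly by the difference between the cell types, which all libraries of a type share. Prdm14 lay nearest to Tfcp2l1, Klf4 and Tbx3, at distances of 0.520, 0.886 and 1.16, and all 3 are in the list of naive markers. Kit lay nearest to Grik3, Frmd4b and Cpt1a, at distances from 0.299 to 0.366. Tfap2c lay nearest to Vangl1, Vegfc and Hspb8, from 0.229 to 0.269. Dppa3 lay nearest to Elk3, Cbln1 and Ebp, from 0.265 to 0.408.

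Among the genes higher in EpiLCs, Ddx4 lay nearest to Tmx4, E2f7 and Arrdc3, at distances from 0.256 to 0.271, and Dnd1 to Ogfr, Fads2 and Pfkl, from 0.333 to 0.417. Dazl lay nearest to Gm40977 and Rnf213, at 0.465 and 0.543. Rhox9 lay nearest to Ubald2, Tmppe and Sigirr, from 0.377 to 0.411. Prdm1 lay nearest to Zfp609 and Bend4, at 0.199 and 0.283.

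RefSeq promoters, from 250 bases before to 50 bases after the start of each gene on GRCm38.p6, were at hand for 5 of the 10 genes. They are described because Ddx4 stood higher in EpiLCs while Dazl and Kit stood lower. Ddx4 held 38 CpG dinucleotides in 300 bases, the most of the 5. Dazl held 28, Prdm1 20, Kit 20 at its first start and 21 at its other start, and Nanos3 3, where the median of all 32851 promoters was 7. The windows of Prdm1 and Nanos3 lie inside their GENCODE genes, away from the 5′ ends of those models.

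The promoters were searched on both strands for CACGTG, the E-box motif of MGA and MAX, and for GCGGGA, a core motif of E2F factors, and no match of the former overlapped a match of the latter. CACGTG is found in 7.15% and GCGGGA in 20.0% of all promoters. Ddx4 held both motifs and Kit held GCGGGA at 2 places, while the windows of Prdm1, Nanos3 and Dazl held neither. The matches are printed with flanking bases on the strand of the gene, and capitals mark the motif.
Ddx4, chr13:112652430-112652457, minus strand: ccgtccatgggGCGGGAagtcgcgcgcc
Ddx4, chr13:112652323-112652350, minus strand: gcgtccgcccgCACGTGcagccgtttaa
Kit, chr5:75574859-75574886, plus strand: ggcactaggcaGCGGGAgggagtgcgac
Kit, chr5:75574880-75574907, plus strand: gtgcgacccggGCGGGAgaagggagggg
Both matches of Ddx4 fall inside the GENCODE model of the gene, near its 5′ end, and both matches of Kit lie upstream of the GENCODE start of Kit.

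The surroundings of these genes were described with 8 lists that hold 181 genes, some of the 10 included. Of these, 153 were listed in ESCs and 162 in EpiLCs. In ESCs edgeR called 8 genes of the lists (5.23%, against 6.91% of all genes), with 6 above 0 and 2 below, and in EpiLCs it called none. At an unadjusted p under 0.05 there were 52 in ESCs (34.0%, against 28.7% of all genes) and 22 in EpiLCs (13.6%, against 15.1%). DESeq2 called 15 genes of the lists in ESCs and 1 in EpiLCs, more than edgeR, while over all genes it called fewer in ESCs (753 against 906) and more in EpiLCs (71 against 0). The calls in ESCs ended, with 0 genes, when the GC and length trend was removed, in the model of all 12 libraries, and when any of the 6 libraries was left out.

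BMP and WNT signals induce Prdm1 and Prdm14 in the epiblast. Of 19 genes of this induction, 15 were listed in each cell type and edgeR called none, with an unadjusted p under 0.05 for 5 in ESCs, against 28.7% of all genes, and 1 in EpiLCs, against 15.1%. In ESCs 11 were higher and 4 lower with Δ9-THC (median log2 0.13), and in EpiLCs 12 and 3 (median 0.12). Id3, a BMP target, had the largest increase in EpiLCs, at 0.80 ± 0.18 with an adjusted p of 0.172, and Id1, another such target, the largest decrease at -0.43 ± 0.25. In ESCs these were Smad9 at 0.49 ± 0.17 and Id1 at -0.16 ± 0.096, and Ctnnb1 was the most abundant of the list per length in both. Wnt3 and Bmp8b were listed in EpiLCs only, and T and Smad9 in ESCs only.

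Of 21 partners and co-regulators of the specification factors, all were listed, and Ezh2, the methyltransferase of Polycomb complex PRC2, rose in ESCs by a log2(fold-change) of 0.15 ± 0.032 (adjusted p of 0.0452). The list had medians of 0.013 in ESCs, with 11 higher and 10 lower, and 0.047 in EpiLCs, with 12 higher and 9 lower, and the unadjusted p was under 0.05 for 10 of the 21 in ESCs, against 28.7% of all genes, and 1 in EpiLCs, against 15.1%. Otx2 at 0.22 ± 0.069 and Foxd3 at -0.35 ± 0.16 were at the ends of the list in ESCs. In EpiLCs the ends were Esrrb at 0.28 ± 0.14 and Pou5f1, the most abundant of the list per length there, at -0.23 ± 0.059 with an adjusted p of 0.200. Nanog was the most abundant in ESCs at 453 FPKM.

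Of 25 other early germ cell genes, 21 were listed in ESCs and 22 in EpiLCs, with medians of -0.033 and -0.027 and an unadjusted p under 0.05 for 7 in ESCs, against 28.7% of all genes, and 5 in EpiLCs, against 15.1%. Elavl2, an RNA-binding protein gene, rose in ESCs by 0.22 ± 0.044 (adjusted p of 0.0415), and in EpiLCs it stood at 0.30 ± 0.074 with an adjusted p of 0.187. Cxcr4 at 0.27 ± 0.13 and Itgb3 at -0.38 ± 0.096 were at the ends in ESCs, and Tfap2a had the largest decrease in EpiLCs at -0.40 ± 0.15. Dppa5a was the most abundant in both, at 3029 FPKM in vehicle ESCs. Sox17 and Nanos2 were listed in neither cell type.

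Of 45 germline genes described as sensitive to promoter methylation, Dazl and Ddx4 among them, 33 were listed in ESCs and 40 in EpiLCs. By edgeR none was called, with an unadjusted p under 0.05 for 7 in ESCs, against 28.7% of all genes, and 9 in EpiLCs, against 15.1%, while DESeq2 called Dazl in ESCs. In ESCs 22 were higher and 11 lower (median 0.083), and in EpiLCs 27 and 13 (median 0.12). Hormad1 at 0.44 ± 0.14 and Tdrd1 at -0.36 ± 0.23 were at the ends in ESCs, and Sycp2 at 0.49 ± 0.19 and Taf9b at -0.30 ± 0.090 in EpiLCs. Zfp42 in ESCs and Rpl10l in EpiLCs were the most abundant per length. Dazl, with an adjusted p of 0.0720, had the lowest adjusted p of this list in ESCs.

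Of 14 genes of the Rhox cluster, 7 including Rhox9 were listed in both cell types, with medians of -0.044 in ESCs and 0.031 in EpiLCs. None of the 7 was called by edgeR, where 6.91% of all genes were called in ESCs and 0% in EpiLCs. None had an unadjusted p under 0.05, against 28.7% of all genes in ESCs and 15.1% in EpiLCs. Rhox5 was the most abundant per length, at 350 FPKM in vehicle ESCs and 748 FPKM in vehicle EpiLCs, where Rhox9 had 3.16 and 1.66. The ends of the list were Rhox4e at 0.22 ± 0.16 and Rhox13 at -0.24 ± 0.17 in ESCs, and Rhox13 at 0.31 ± 0.20 and Rhox1 at -0.16 ± 0.21 in EpiLCs.

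Of 24 genes of the PRC1.6 complex and related repressors, which keep germline genes such as Ddx4 silent, all were listed and 3 rose in ESCs by edgeR, where it called 6.91% of all genes and these calls ended in the settings named above. They were Cbx3 by 0.26 ± 0.035 (adjusted p of 0.0283), Rnf2 by 0.20 ± 0.031 (adjusted p of 0.0301) and Cbx1 by 0.15 ± 0.033 (adjusted p of 0.0466). An unadjusted p under 0.05 was found for 10 of the 24 in ESCs, against 28.7% of all genes, and 2 in EpiLCs, against 15.1%. Yaf2 had the largest decrease in ESCs at -0.25 ± 0.061. The medians were 0.019 in ESCs, with 15 higher and 9 lower, and -0.0074 in EpiLCs, with 12 each way. In EpiLCs Mga was at 0.44 ± 0.078 with an adjusted p of 0.144 and Dnmt1 at -0.17 ± 0.15. Uhrf1 in ESCs and Dnmt3b in EpiLCs were the most abundant per length.

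Of 16 genes of KIT ligand, chemokine and survival signalling, 15 were listed in ESCs and 16 in EpiLCs, Kit included, with an unadjusted p under 0.05 for 5 in ESCs, against 28.7% of all genes, and 3 in EpiLCs, against 15.1%. In ESCs Cbl, a ubiquitin ligase that takes activated KIT off the surface, rose by 0.18 ± 0.036 (adjusted p of 0.0402), and Akt2 fell by 0.14 on the log2 scale (adjusted p of 0.0388). Kitl, the ligand gene, named after its values were seen, had 1.56 CPM in vehicle ESCs and 1.03 CPM in vehicle EpiLCs. Sos1 at 0.30 ± 0.073 and Cxcr4 at -0.33 ± 0.20 were at the ends in EpiLCs, and Cxcr4 at 0.27 ± 0.13 had the largest increase in ESCs. The medians were 0.046 in ESCs and 0.088 in EpiLCs, and Grb2 in ESCs and Bax in EpiLCs were the most abundant per length.

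Of 19 genes of RNA regulation, partners of NANOS3, DND1 and DAZL among them, all were listed. Their medians were 0.074 in ESCs and 0.082 in EpiLCs. An unadjusted p under 0.05 was found for 9 of the 19 in ESCs, against 28.7% of all genes, and 1 in EpiLCs, against 15.1%. Cnot3, a subunit of the CCR4-NOT deadenylase, fell in ESCs by 0.17 on the log2 scale (adjusted p of 0.0461), while 16 of the 19 were above 0 there, as were 51.1% of all genes. Cnot6l at 0.23 ± 0.077 had the largest increase in ESCs, and Lin28b at 0.28 ± 0.14 and Cnot11 at -0.15 ± 0.098 were at the ends in EpiLCs. Pabpc1 was the most abundant per length in both.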

How the data were processed

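Poly(A) RNA of ESCs and EpiLCs was sequenced from libraries made with either of 2 kits. The authors used STAR for alignment, retained reads with a single position, obtained exon counts with HTSeq without strand, removed genes with low counts and adjusted the rest with ComBat-seq, for batches that are not named. The deposited values are these adjusted counts, whole numbers not scaled for library size. The sources name the genome as mm10 and as GRCm39, so the GENCODE M21 positions (GRCm38) only describe the genes. No annotation was found for 21 identifiers of each table.

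All 12 columns were assigned by label, with 0 left over. Exposures were compared with edgeR 4.0.16 (quasi-likelihood, TMM, genes with a total over 10 counts, Benjamini-Hochberg adjustment) in R 4.3.3, two-sided, and the interaction in a model with 4 group means. SEs are those implied by the F statistic. Fits were tested on simulated libraries, drawn independently, with 200 genes changed by 1 on the log2 scale. Of the calls by edgeR on these simulated data, 4.06% were false in ESCs, 4.3% in EpiLCs and 3.45% in the interaction. For DESeq2 these shares were 7.8%, 15.9% and 13%. The deposited libraries of a cell type are not independent, so these shares do not carry over to the calls made on them. Python 3.11.15, pandas 2.3.3 and matplotlib 3.10.9 made tables and figures.

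The members, the 8 gene lists and the 9 marker lists were chosen with earlier results of these data known. Named genes are the 10 members and, of each list, genes called in either cell type, the most abundant per length, and those with the largest increase and decrease. The most similar genes, up to 3 for each member, are by log2 CPM with a prior count of 2.

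Alternatives were RLE, DESeq2 1.42.0, no filter, a minimum of 10 counts per library, the replicate number as a block, GC and length offsets (5 df natural splines), block and offsets jointly, all 12 libraries in 1 model, each library left out, 3 other scalings of the levels and the longest transcript as length.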

Additional observations from a re-analysis of the deposited data

How the results depend on the processing

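The 906 genes called in ESCs became 7 with the GC and length offsets, 31 with all 12 libraries in 1 model, and 0 to 1 when a library was left out. The 0 genes called in EpiLCs became 71 with DESeq2 and 411 with all 12 libraries in 1 model. The 4 genes of the interaction became 133 with DESeq2, 16 with the offsets and 0 to 0 when a library was left out. Of the gene lists, the 8 genes called in ESCs became 15 with DESeq2, 0 with the offsets, 0 with all 12 libraries and 0 to 0 when a library was left out, and the 0 called in EpiLCs became 1 with DESeq2 and 5 with all 12 libraries. The cause of these shifts was not tested, beyond that a fit without a library has fewer samples.

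Replicate numbers were not treated as pairs. Over genes, deviations from the group mean correlated between -0.987 and -0.977 for libraries of the same number in ESCs and between -0.985 and -0.979 in EpiLCs, and between 0.369 and 0.604 and between 0.223 and 0.695 for those of different numbers. With the replicate block, 5 genes were called in ESCs, 0 of the interaction and 0 of the lists in ESCs. With the block and the offsets together these counts were 3, 0 and 0. At an unadjusted p under 0.05 with the block alone, only Dazl of the 10 germ cell genes remained in ESCs, where the share of all genes was 11.1%. Of the 9 genes in EpiLCs only Ddx4 remained, against 2.12% of all genes. In the interaction only Prdm14 of the 9 remained, against 2.64%.

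For single genes, the sign turned in ESCs with the offsets for Prdm14 (log2(fold-change) 0.0060), Tfap2c (0.0081), Dppa3 (-0.091), Dnd1 (0.037) and Ddx4 (-0.023), and with block and offsets to 0.0063, 0.0082, -0.091, 0.036 and -0.023. Leaving out a library turned it in ESCs for Prdm14 (range -0.025 to 0.026), Dppa3 (-0.078 to 0.10), Dnd1 (-0.073 to 0.017) and Rhox9 (-0.21 to 0.029), and in EpiLCs for Prdm1 (-0.020 to 0.23), Dnd1 (-0.31 to 0.030), Dazl (-0.017 to 0.19) and Rhox9 (-0.21 to 0.051). For the interaction it turned for Prdm1 (-0.18 to 0.063), Dnd1 (-0.27 to 0.061) and Rhox9 (-0.095 to 0.15). Without a turn of sign, leaving out a library moved Prdm1 (0.11 to 0.26) and Ddx4 (0.030 to 0.13) in ESCs. In EpiLCs it moved Tfap2c (0.047 to 0.22). None of these differences was called. The difference of Dazl in ESCs kept its sign in 14 of 14 alternatives, as did those of Prdm1 and Kit in ESCs. The same held for Prdm14, Kit, Ddx4, Dppa3 and Tfap2c in EpiLCs, and Nanos3 in ESCs kept its sign in 13 of 13. The alternatives reuse the same libraries, so a kept sign is not independent support. Depth limits Prdm14 and Rhox9 in EpiLCs and Nanos3 and Dnd1 in ESCs, which rest on 23 to 116 counts per library.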
